A study of Homo sapiens with 4 samples.

Results

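The progesterone receptor (PR) bound 1187 sites in T47D cells inside genes that were listed at or near 0 in the vehicle RNA, and most of those genes were still listed under the same limit after the hormone was given. The 1187 sites were 10.6% of the 11181 PR binding sites in the series, and they fell inside 745 genes. With the synthetic progestin R5020, 691 of the 745 genes stayed under an FPKM of 0.1, which is the limit that had defined them as silent in vehicle. An FPKM of 1 was reached by 5, and these were KRT8, ZBTB16, PRDM1, GPR124 and PRKAR1B. KRT8 belongs to that count only because its estimate failed in the vehicle library. Among all 9279 genes under 0.1 in vehicle, bound or not, 4.53% reached 0.1 and 0.722% reached 1 with R5020. For the 745 genes these shares were 7.25% and 0.671%. FPKM is the Cufflinks estimate of transcript level, scaled to transcript length and library size, and a gene's FPKM here is the sum over its RefSeq transcripts.

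The sites were chosen by their peak score, their distance from gene starts and the vehicle RNA of the genes around them. A member site had a score under 150 (the score is -10 times the log10 of the peak p-value), its midpoint was more than 1 kb from every protein-coding transcript start in GENCODE release 44 on hg19, and the midpoint lay within at least 1 RefSeq locus of the RNA data. Every gene over the midpoint had an FPKM under 0.1 in the vehicle library. The vehicle FPKM and the peak score therefore describe the sites and are not findings about them. The study treated T47D cells, an established luminal breast cancer line that expresses PR, in medium with charcoal-stripped serum. By the paper's methods, cells for ChIP were kept in that serum longer than cells for RNA. RNA was sequenced after 3 h with 10 nM R5020 or with the vehicle ethanol (EtOH), as 1 library for each condition. PR was immunoprecipitated after 1 h with 10 nM R5020, as 1 ChIP library whose peaks were called against an input library. All RNA and ChIP values thus come from single libraries of one cell line with no replicate check, and no p-value between conditions can be given. PR binding without hormone is not part of the data analysed here.

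PR is a nuclear receptor that binds progesterone and then DNA as a dimer. Its DNA element, the progesterone response element (PRE), is built from a pair of half-sites facing each other across a spacer, and the glucocorticoid and androgen receptors read nearly the same letters. Steroid receptors often bind far from gene starts, and a bound site does not by itself mean that the gene around it is transcribed. In breast epithelium PR acts with factors that open chromatin, among them FOXA1 and GATA3.

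The sequences of 8 member sites are shown because they carry the contrast between sites with and without a PRE. Each is read from hg19 on the plus strand, 5′ to 3′. The letters searched were ACANNNTGT for the PRE core, which reads the same on both strands. The stricter form of the core also has a G 2 bases before it and a C 2 bases after it. The first 5 sequences are the member sites of highest score with that stricter form, in 41-base windows, with the core in capitals. They lie at chr9:114775105-114775145, chr22:33248947-33248987, chr15:68885056-68885096, chr1:17641342-17641382 and chr2:10914577-10914617 in the order given.
Site in MIR3134: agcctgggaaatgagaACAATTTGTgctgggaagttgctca
Site in SYN3 and TIMP3: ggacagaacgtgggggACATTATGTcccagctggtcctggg
Site in CORO2B: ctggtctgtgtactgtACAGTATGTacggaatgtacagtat
Site in PADI4: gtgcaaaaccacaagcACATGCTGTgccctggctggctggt
Site in ATP6V1C2: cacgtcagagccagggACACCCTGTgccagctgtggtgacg

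The other 3 are 300-base windows centred on the site. The higher-scored member site in ZBTB16, at chr11:114033564-114033863, holds the stricter core, again in capitals. The site in PRDM1, at chr6:106551581-106551880, has no core and carries the half-site TGTTCT in capitals. The site in ABCC8, at chr11:17432683-17432982, has the highest score of all members and holds neither the core nor a half-site, so nothing in it is capitalised.
Site in ZBTB16: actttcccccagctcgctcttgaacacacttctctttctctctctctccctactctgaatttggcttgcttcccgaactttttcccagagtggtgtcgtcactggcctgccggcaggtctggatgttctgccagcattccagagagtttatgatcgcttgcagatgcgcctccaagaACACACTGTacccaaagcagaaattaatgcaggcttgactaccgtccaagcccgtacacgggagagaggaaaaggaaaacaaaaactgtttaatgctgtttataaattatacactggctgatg
Site in PRDM1: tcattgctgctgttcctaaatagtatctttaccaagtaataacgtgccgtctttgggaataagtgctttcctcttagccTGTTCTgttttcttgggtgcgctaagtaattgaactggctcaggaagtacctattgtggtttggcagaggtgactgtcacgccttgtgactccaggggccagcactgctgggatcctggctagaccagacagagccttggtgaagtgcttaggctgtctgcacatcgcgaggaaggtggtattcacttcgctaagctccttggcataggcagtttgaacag
Site in ABCC8: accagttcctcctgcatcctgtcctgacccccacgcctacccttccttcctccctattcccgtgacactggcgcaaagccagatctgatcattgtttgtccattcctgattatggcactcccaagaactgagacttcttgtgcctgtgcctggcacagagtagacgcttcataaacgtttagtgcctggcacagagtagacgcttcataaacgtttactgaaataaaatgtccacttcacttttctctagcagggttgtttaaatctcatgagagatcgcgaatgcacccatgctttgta

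The RNA libraries had the markers of T47D. PGR was at 23.7 FPKM in EtOH and 15.3 in R5020, and ESR1 was at 17.2 and 10.9. GATA3, FOXA1, KRT19, CDH1, PIP and PRLR were all above 14 FPKM in both libraries. KRT8 and KRT18, the paired luminal keratins, were listed at 0 in EtOH with a status of FAIL and at 285 and 174 FPKM in R5020. Of 10 markers of other cell types, 8 were under 0.4 FPKM in both libraries, VIM was at 0.36 and 0.527, and COL1A1 was at 5.12 and 3.31. The EtOH library held the equivalent of 35151493 reads of 50 bases on transcripts and the R5020 library 36203604. These are equivalents computed from the listed coverage and length. At the median length of a host gene's longest transcript, 3282 nt, an FPKM of 0.1 corresponded to 29.2 such reads in R5020 and 3 reads to an FPKM of 0.0103. For 390 of the 745 host genes both libraries held under 3 read equivalents. In bulk RNA, fewer cells expressing a gene and less RNA per cell cannot be told apart.

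A listed 0 needs care in these files, because it was also given to genes that all cells use. Of the 745 host genes, 416 were listed at 0 in EtOH. For 333 of them the upper limit that Cufflinks lists beside the estimate was also 0, and for 83 it was above 0. TAF6, a subunit of the general transcription factor TFIID that dividing cells need, was among the latter and was listed at 0 in both libraries (it is named here after its value was seen). Of all transcripts above 0, 24.3% in EtOH and 24% in R5020 had an estimate outside their own listed interval. Silent is therefore used below only for a listed FPKM under 0.1.

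Most host genes were listed at or near 0 in both libraries. In 318 genes both values were 0. A further 98 were at 0 in EtOH and above 0 in R5020, and 53 were above 0 in EtOH and at 0 in R5020. In the 276 genes above 0 in both, R5020 was higher in 165 and lower in 111. The genes were chosen for a low EtOH value, so these splits do not show a direction. The mirror choice below was made on R5020 instead. Of its genes, 282 were above 0 in both, with EtOH higher in 161 and lower in 121. The median R5020 FPKM of the host genes was 0.00209 and the 90th percentile was 0.0833. In R5020, 54 host genes (7.25%) were at 0.1 or more, and 45 of these lay between 0.1 and 0.5. The intervals listed for the 2 libraries, read from a single transcript per gene, did not overlap in 30 of the 54. Among all 9279 genes under 0.1 in EtOH, host or not, 4.53% were at 0.1 or more in R5020. At an FPKM of 1 or more the host genes had 0.671%, and all silent genes had 0.722%. On log2(FPKM + 1), which understates the change of low genes, 8 host genes (1.07%) were 1.5-fold or more higher in R5020 and none was as much lower, against 0.981% higher among all silent genes. A gene under 0.1 cannot fall far on this scale, so the 0 lower is fixed by the choice. Seen by site, 1096 of the 1187 (92.3%) lay only in genes that stayed under 0.1.

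Genes above 0 in EtOH start nearer to the limit than genes at 0, so host genes and all silent genes were set side by side within each class. Among host genes at 0 in EtOH, 10 of 416 (2.4%) were at 0.1 or more in R5020, and among all silent genes at 0 it was 124 of 6849 (1.81%). Among host genes above 0 in EtOH, 44 of 329 (13.4%) reached 0.1, and among all such silent genes 296 of 2430 (12.2%) did. These shares are a description, since the EtOH FPKM chose the genes, and no test was made between them. Host genes were long, with a median locus of 60.6 kb against 8.26 kb for the 8534 silent genes without a member site, and expressed genes that held PR sites had a similar median of 61.4 kb.

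The same choice was made in mirror image, by asking for an R5020 FPKM under 0.1 and reading the EtOH value. It gave 1224 sites in 749 genes, of which 58 (7.74%) were at 0.1 or more in EtOH and 4 (0.534%) at 1 or more. Over all 9361 genes under 0.1 in R5020 these shares were 5.36% and 0.769%. Genes chosen silent with hormone thus passed the limits in vehicle at about the rate at which genes chosen silent in vehicle passed them with hormone. The host lists of the 2 choices shared 691 genes, which is 92.8% of the first and 92.3% of the second. These are the host genes under 0.1 in both libraries. The overlap therefore restates the shares above and is not a separate result. The 4 mirror genes at 1 or more in EtOH and 0 in R5020 were CPNE1 at 18.3, ZMYM2 at 5.39, TBC1D14 at 5.15 and A1BG at 1.52, and the estimate had failed in 1 library for ZMYM2 and TBC1D14.

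**Figure D1:**
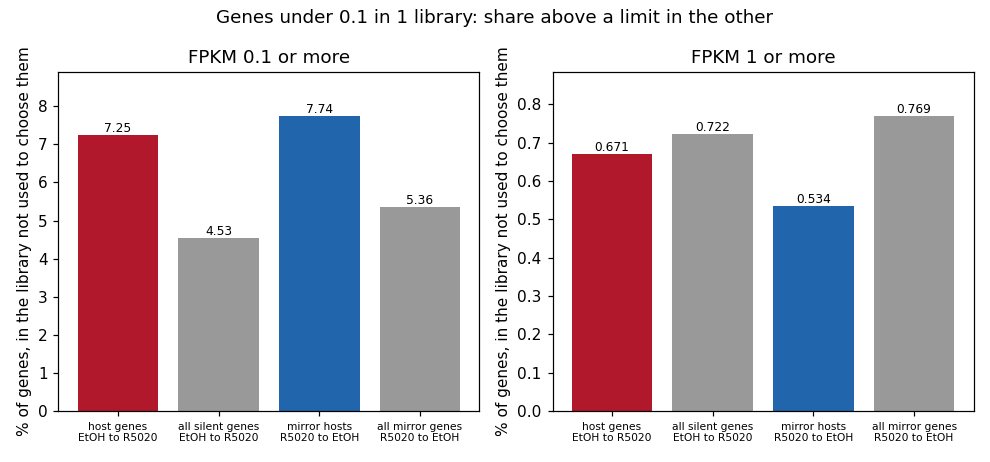
Bars give the percentage of genes at an FPKM of 0.1 or more (left) or 1 or more (right) in the library that was not used to choose them as silent, for host genes of PR sites (coloured) and for all genes chosen the same way (grey). Each bar rests on 1 library per condition and has no error bar. The host bars are 7.25% and 7.74% on the left, and 0.671% and 0.534% on the right.

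A pair of transcription repressors, ZBTB16 and PRDM1, had the highest R5020 values among the host genes with estimates in both libraries. ZBTB16 encodes PLZF, a zinc finger repressor that other steroid hormones also switch on. It was listed at 0 in EtOH, with an upper limit of 0, and at 1.63 FPKM in R5020, where its listed interval ran from 1.35 to 1.91. No read equivalent was assigned to it in EtOH and 325 were in R5020. ZBTB16 spans 191 kb on chromosome 11 and had 6 PR sites, of which 2 were members. The member at chr11:114033316-114034111 had a score of 101.94 and holds the stricter core shown above. The other, at chr11:114096980-114097604, had a score of 55.51 and no core. Between them lay 2 sites with scores of 188.1 and 399.01, both with a core, and the gene also held 2 sites within 1 kb of a coding start. ZBTB16 was thus not a gene bound by weak sites alone. PRDM1 encodes BLIMP1, a repressor known for driving B cells into plasma cells. It was at 0.089 FPKM in EtOH, just under the limit, and at 1.45 in R5020, or 42.2 against 682 read equivalents. Its listed interval was 0.0519 to 0.126 in EtOH and 1.29 to 1.61 in R5020, and the intervals did not overlap. Such an interval covers the estimate within 1 library and not the spread between cultures. The ratio of the 2 estimates was 16.3. The only PR site inside PRDM1 was the member with the half-site shown above, at a score of 127.73.

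The others at 0.5 FPKM or more were PRKAR1B, GPR124, FAM69B, RET, RASL10B, CORO2B and KRT8. PRKAR1B, a regulatory subunit of protein kinase A, was listed at 0 in EtOH and at 1.02 in R5020 (226 read equivalents). It held 12 member sites, with scores from 64.41 to 144.98, and no other PR site. None of its 12 sites had a PRE core, and 3 had a half-site. GPR124, an adhesion G protein-coupled receptor needed for the growth of brain vessels, was listed at 0 in EtOH and at 1.39 in R5020, but the latter estimate lay above its own listed interval of 0.643 to 0.913. Its 1 member site had a score of 52.35 and held a PRE core. For both genes, and for FAM69B at 0 and 0.676 FPKM, the EtOH upper limit was above 0, as it was for TAF6. RET, the receptor tyrosine kinase for ligands of the GDNF family, was at 0.0685 FPKM in EtOH and 0.644 in R5020, or 30.7 against 289 read equivalents, a ratio of 9.41. It held 4 member sites, with scores from 70.18 to 137.73, and 1 promoter site, and none of the 4 members had a core or a half-site. RASL10B, a small GTPase of the Ras family, was at 0.0527 and 0.553. The paper lists RASL10B among its progestin-regulated small GTPases. RASL10B held 1 member site and 2 promoter sites, and FAM69B held 2 member sites and 1 promoter site. CORO2B, an actin-binding coronin, was listed at 0 with an upper limit of 0 in EtOH and at 0.502 in R5020 (153 read equivalents), and of its 2 member sites the stronger holds the stricter core.

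KRT8 was the highest host gene in R5020, at 285 FPKM, and was listed at 0 in EtOH with a failed estimate. The R5020 estimate lay below its own listed interval of 349 to 361. It encodes a keratin of simple epithelia that T47D cells use as a structural protein. Its 2 member sites had scores of 55.58 and 56.65 and no core. With genes of failed estimates left out there remained 1185 sites in 744 genes, of which 4 were at 1 FPKM or more in R5020. With the genes listed at 0 but with an upper limit above 0 left out instead, 1069 sites in 662 genes remained and 3 genes were at 1 or more, namely KRT8, ZBTB16 and PRDM1.

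**Figure D2:**
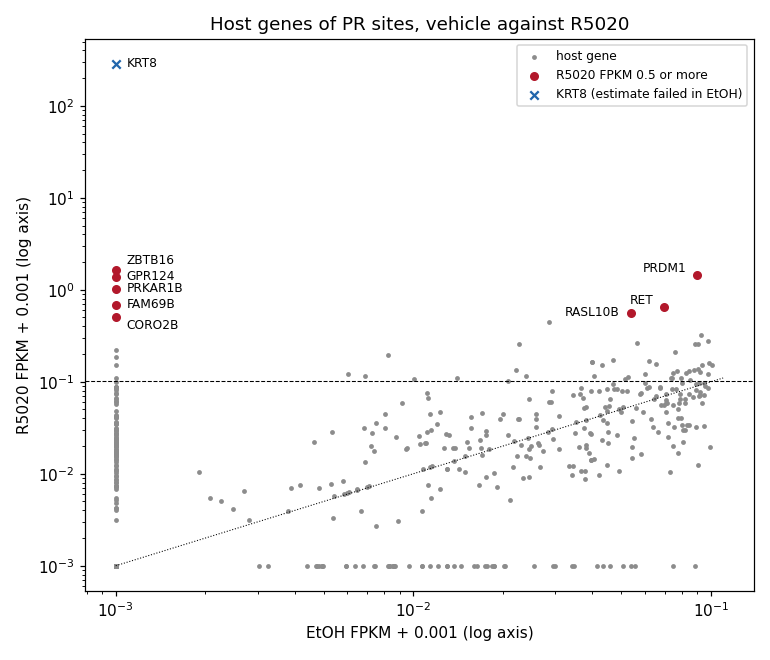
Each point is 1 of the 745 host genes, with its EtOH FPKM on the horizontal and its R5020 FPKM on the vertical log axis, both with 0.001 added so that genes listed at 0 can be drawn. The dashed line marks an R5020 FPKM of 0.1 and the dotted line equal values. Red points are the 8 genes at 0.5 or more with an estimate in both libraries, and the cross is KRT8.

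Below 0.5 FPKM the host genes listed at 0.1 or more with R5020 included receptors, transporters and developmental genes. NXPH3, a secreted ligand of neurexins, was at 0.0275 in EtOH and 0.441 in R5020, or 15.3 and 229 read equivalents. Besides its 1 member site it held 2 PR sites within 1 kb of a coding start. PAX2, a developmental transcription factor of kidney and reproductive tract, was at 0.0919 and 0.323. NRP1, a co-receptor for semaphorins and VEGF, was at 0.097 and 0.274. CALCR, the calcitonin receptor, was at 0.0556 and 0.260, and ABCC8, the sulfonylurea receptor, was at 0.00505 and 0.119. The 54 genes had a median of 47.5 read equivalents in R5020 and 11.1 in EtOH. A gene had to be under 0.1 in EtOH to enter, so a count of higher values here does not show a direction.

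The sites were spread over many genes, with a few genes holding many. In 494 of the 745 host genes there was 1 member site, and 27 genes held 5 or more. RBFOX3, the neuronal splicing factor known as the NeuN antigen, held 16, and was at 0.0656 FPKM in EtOH and 0.0277 in R5020. PKNOX2, a homeobox factor, held 14 and was at 0.023 and 0.116. BAI1, an adhesion receptor of brain, held 12 and was at 0.048 and 0.0098. SDK1, a synaptic adhesion protein, held 9 and was at 0 and 0.0084. SLC9A3, the sodium-proton exchanger of gut and kidney, held 8 and was at 0.0535 and 0.0138. NTNG2, a netrin of neurons, held 8 and was listed at 0 in both. ADARB2, a brain relative of the RNA editing enzymes, held 7 and was at 0.00638 and 0.0166. With PRKAR1B these 8 genes held 86 member sites, 7.25% of all. Of the 8, PRKAR1B and PKNOX2 reached 0.1 in R5020, and PKNOX2 did so with 34.8 read equivalents against 7.72.

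**Figure D3:**
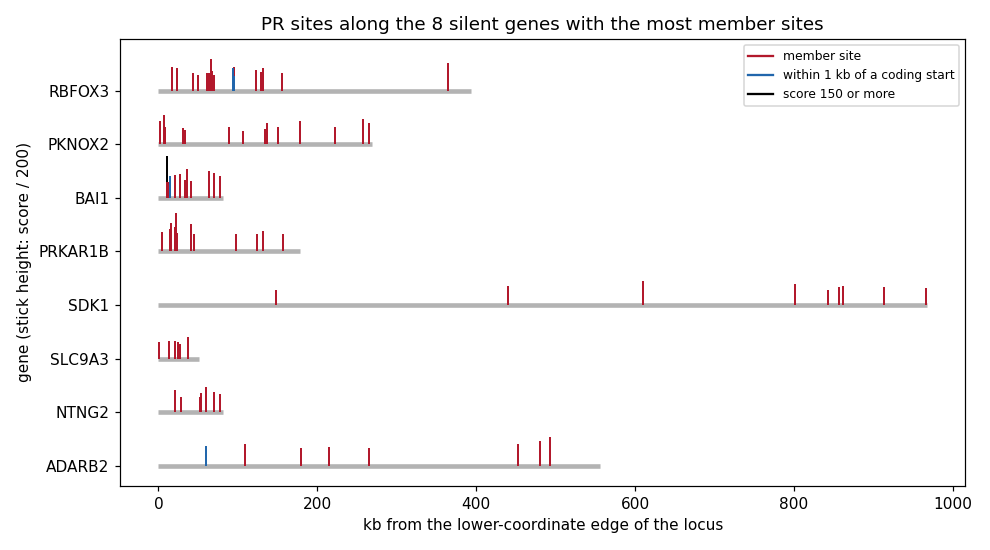
PR sites along the 8 silent genes with the most member sites, drawn as distance in kb from the lower-coordinate edge of each locus (grey bar), with stick height proportional to the peak score. Red sticks are member sites, blue sticks lie within 1 kb of a coding start, and the black stick in BAI1 has a score of 150 or more. RBFOX3 holds 16 members and PKNOX2 14, and neither has a site of 150 or more.

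The gaps between sites differed among these genes, and whether the sites cluster within a gene was not tested. The 16 sites of RBFOX3 spanned 348 kb with a median gap of 6.51 kb, and the 14 of PKNOX2 spanned 264 kb with a median gap of 18.2 kb. Per 100 kb of locus, SLC9A3 held 15.6 member sites, BAI1 14.8, NTNG2 9.89, PRKAR1B 6.72, PKNOX2 5.21 and RBFOX3 4.07, while SDK1 held 0.93. The median over all host genes was 2.28. Another PR site of any kind lay within 10 kb of 35.6% of member sites (95% Wilson interval 33.0 to 38.4) and of 42.6% (40.6 to 44.7) of the 2262 sites inside expressed genes. The latter are sites under the same limits on score and distance with at least 1 gene at an EtOH FPKM of 1 or more. Intervals on shares here cover counting error only, and neighbouring sites are not independent.

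Host genes were also divided by what else they held. Of the 79 host genes whose member site held a PRE core, 7 (8.86%) were at 0.1 or more in R5020, against 47 of 666 (7.06%) without. With a member site scored 100 or more it was 11 of 124 (8.87%), against 43 of 621 (6.92%). For host genes that also had a PR site within 1 kb of a coding start it was 11 of 115 (9.57%), against 43 of 630 (6.83%). Of the 90 genes with 3 or more member sites only 3 (3.33%) reached 0.1, against 51 of 655 (7.79%). With a further site of 150 or more it was 1 of 16 (6.25%), namely ZBTB16, against 53 of 729 (7.27%). These are counts of single-library values and no test was made between them.

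Host genes included some known from neurons, muscle, matrix and blood, described here by 10 lists that were chosen with earlier results known. Over all genes, 9279 of 23287 were silent in EtOH, and 745 of those silent genes held a member site. Host loci were long (median 60.6 kb against 8.26 kb for other silent genes). The part of locus length in the list counts was not tested. Of 36 genes of synaptic adhesion, 25 were silent in EtOH and 9 of these held 23 member sites, and none of the 9 was at 0.1 or more in R5020. OPCML and NTM, long neuronal adhesion genes, held 6 and 5 sites. OPCML was listed at 0 in both libraries and NTM at 0 and 0.0111. Of 49 voltage-gated and calcium release channel genes 34 were silent, and 17 of them held 42 sites with none reaching 0.1. KCNQ1, a potassium channel of heart, held 6 and was at 0 and 0.0416, and CACNA1B, the neuronal N-type calcium channel, held 6 and was at 0.0143 and 0.0179. Of 41 glutamate and GABA receptor genes 32 were silent, and 5 held 15 sites with none at 0.1. GRID1, a delta-type glutamate receptor, held 7 of these and was at 0 and 0.00693. GRIN2D, an NMDA receptor subunit, was at 0.0872 in EtOH and listed at 0 in R5020.

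No host gene of the cadherin, muscle, matrix and blood cell lists was at 0.1 or more in R5020 either, while 2 of the axon guidance list were. In the cadherin list 18 of 29 genes were silent, and 4 (FAT3, PCDH15, CDH22 and PCDH9) held 7 sites, the highest R5020 value being 0.0252 in FAT3. In the axon guidance list 22 of 34 were silent, 9 held 19 sites, and NRP1 and the ephrin receptor EPHA8 (0.0748 and 0.208) reached 0.1. SLIT3, a secreted guidance cue, held 5 sites and was at 0 and 0.00586. ROBO3, a receptor for SLIT proteins, held 3 and was at 0.0413 and 0.0428. Muscle genes had 26 of 33 silent, with 6 sites in 5 genes and none at 0.1. NRAP, a protein of muscle attachment, was at 0.0432 and 0.0527. For collagens and matrix 29 of 39 were silent, with 13 sites in 7 genes and none at 0.1. COL23A1 held 7 of the 13 and was at 0 and 0.00723. Blood cell genes had 27 of 35 silent, and 5 of them (with ITGB2, an integrin of leukocytes, highest at 0.0642 in R5020) held 7 sites. The median R5020 FPKM of the hosts in a list ran from 0 in the cadherin, glutamate receptor and muscle lists to 0.0477 in the protease list, against 0 over all silent genes.

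The protease and phosphodiesterase lists had a few members over the limit. Of 32 ADAM and ADAMTS protease genes 25 were silent and 5 held 9 sites. ADAMTS8, a secreted metalloprotease, was at 0.0216 in EtOH and 0.258 in R5020 (6.61 and 88.7 read equivalents) and ADAMTS17 was at 0.0737 and 0.124. The listed intervals of EtOH and R5020 overlapped for ADAMTS17 and did not for ADAMTS8. ADAMTS2, which trims procollagen, held 3 sites and was at 0.0439 and 0.0477. Of 31 phosphodiesterase and adenylyl cyclase genes 16 were silent and 8 held 11 sites. PDE9A, which degrades cyclic GMP, was the 1 that passed the limit, at 0.0813 and 0.124. Over the 10 lists, counts of hosts at 0.1 or more were 0 in 7, 1 in 1 and 2 in 2. They are read against 7.25% of all host genes and 4.53% of all silent genes. With 4 to 17 hosts in a list, a count of 0 does not set a list apart from those shares.

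The PRE core was about as frequent under the member sites as in their flanks, and less frequent than under the PR sites of highest score. In 300-base windows on the midpoint, 83 of 1187 members (6.99%, 95% Wilson interval 5.68 to 8.59) held the PRE core ACANNNTGT. In windows of equal length 5 kb to either side the share was 7.25% (6.28 to 8.37), a difference of -0.26 points with a Newcombe 95% interval of -1.98 to 1.61. The flanks were not matched for GC content, whose median was 56% in member windows and 49.3% in flanks. The part of GC content in the core shares was not tested. Sites inside expressed genes had 8.71% (7.62 to 9.94). The difference from them was -1.72 points (-3.52 to 0.216), so the interval includes 0. PR sites with a score of 150 or more, taken at any distance from a start and inside or outside genes, had 21.3% (17.8 to 25.3), and members were 14.3 points lower (the interval of the difference was -18.6 to -10.4). All PR sites together had 8.20%. A match is a run of letters and not evidence of binding through it.

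With the stricter core the members came out at 12 of 1187 (1.01%, interval 0.579 to 1.76) and their flanks at 0.548% (0.321 to 0.935), a difference of 0.46 points (-0.12 to 1.24). Sites in expressed genes had 1.72% and sites of 150 or more 8.52% (6.27 to 11.5). The difference of members from the latter was -7.51 points (interval of the difference -10.5 to -5.14). Of the 12, 8 lay in the top 297 members by score. With members ranked into 4 bins of score from the lowest, the counts were 1 of 298, 1 of 296, 2 of 296 and 8 of 297, while the plain core was in 15, 25, 17 and 26. The top bin ran from a score of 85.16 to 146.99. Beyond the score limit, 30 of the sites of 150 or more met every other condition, and 11 of those (36.7%, interval 21.9 to 54.5) held the core and 6 (20%, 9.51 to 37.3) the stricter core. Silent genes thus also held high-scored PR sites with the letters of a PRE core, 11 of 30, beside 83 of the 1187 members.

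**Figure D4:**
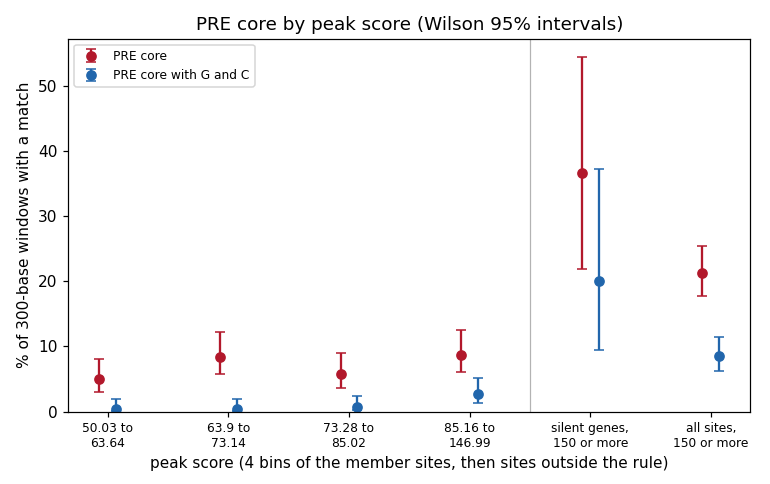
Percentage of 300-base windows with the PRE core (red) and with the stricter core (blue) in 4 bins of the member sites by peak score, in the 30 sites of silent genes with a score of 150 or more, and in all sites of 150 or more. Bars are Wilson 95% intervals for counting error. The member bins lie between 5.03% and 8.75% for the core, below the 36.7% and 21.3% of the groups to the right of the line.

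The single half-site (AGAACA on one strand, TGTTCT on the other, which can overlap the core) was in 20.1% of members and 20.3% of their flanks, against 27.6% of sites of 150 or more. The difference of members from those was -7.44 points (interval -12.3 to -2.84). The forkhead letters TGTTTAC or GTAAACA were in 2.78% of members, 3.16% of flanks and 6.05% of sites of 150 or more. The AP-1 letters TGANTCA were in 7.67% of members and 8.05% of flanks. The GATA letters AGATAA or TTATCT were in 8.51% of members and 14.5% of flanks, a difference of -5.99 points (-8.07 to -3.80). Sites in expressed genes had 8.18% against 12.5% of their flanks for the same letters. The median GC content was 56.0% in member windows and 49.3% in their flanks, and it moves with the A- and T-rich GATA letters, whose part was not tested. Among all PR sites the half-site, forkhead, AP-1 and GATA letters were in 17.7%, 2.58%, 7.22% and 7.97%.

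**Figure D5:**
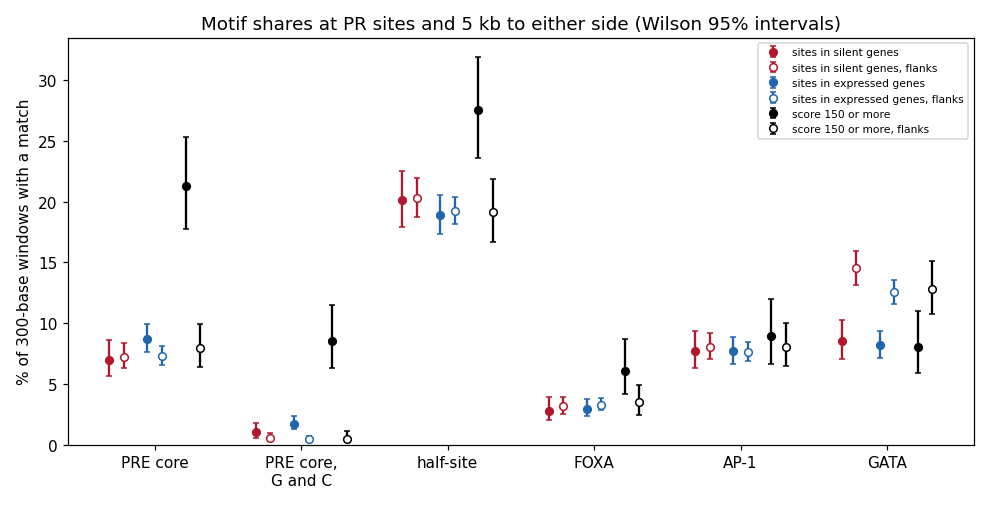
Percentage of 300-base windows with a match to each motif at PR sites (filled) and in windows 5 kb to either side (open), for sites in silent genes (red), sites in expressed genes (blue) and sites with a score of 150 or more (black), with Wilson 95% intervals. For the PRE core the red points lie at 6.99% and 7.25%, and the black filled point at 21.3%.

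Member sites were set beside sites in expressed genes for position and shape. They lay farther from coding starts, with a median distance of 12 kb against 6.37 kb. The median score was 73.14 against 73.44, both set in part by the score limit, and the median width was 458 against 455 bases. Midpoints lay in a GENCODE exon at 18.3% of members (16.2 to 20.6) and 17.9% of the others (16.4 to 19.6), and 970 member midpoints lay in no exon. Within 5 Mb of a chromosome end there were 27.0% of members and 27.1% of the others. Median GC content was 56.0% and 55.7%. Chromosome 5 held 8.51% of members and 5.29% of all PR sites, chromosome 10 held 7.33% and 5.08%, and chromosome 20 held 6.99% and 5.47%. Chromosome 14 held 2.53% and 4.77%, and chromosome 16 held 3.71% and 6.29%. These shares come with no test, since members and genes cluster.

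Sites at the edges of the rule show how narrow the limits are. The members of highest score were in ABCC8 (146.99), PRKAR1B (144.98) and the locus listed as MIR3134 (143.01), and those of lowest score were in PKNOX2 (50.03), SLC12A5 and RYR1 (both 50.13). The next score above the limit among sites that met the rest was 150.1. SNX20 was just inside at 0.09996 FPKM in EtOH and CDH4 just outside at 0.1005. The nearest member midpoint was 1001 bases from a coding start, and the nearest site outside was at 991. MIR3134, a microRNA with a transcript of 69 nt, has a listed locus of 354 kb on chromosome 9. There were 9 host genes with a longest transcript under 200 nt, holding 10 sites in loci from 0.081 to 470 kb, and none reached 0.1.

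Changed genes lay less often near member sites than near sites in expressed genes, and over the sites with an expressed gene in reach the interval of the difference included 0. A neighbour is a gene other than the host within 50 kb of the site with an FPKM of 1 or more in at least 1 library. Of 11018 genes at that level, 11.8% differed by 1.5-fold or more on log2(FPKM + 1) between the libraries, with 845 higher in R5020 and 456 lower. At least 1 such neighbour lay by 85 of the 1187 members (7.16%, interval 5.83 to 8.77) and by 241 of 2262 sites in expressed genes (10.7%, 9.45 to 12). The difference was -3.49 points, with an interval of -5.38 to -1.48. Only 405 members (34.1%) had any neighbour at that level, against 1169 (51.7%) of the sites in expressed genes. Over these sites alone the shares near a changed gene were 21.0% (17.3 to 25.2) and 20.6% (18.4 to 23), a difference of 0.37 points (-4.03 to 5.15), in a comparison added after seeing the data. Some neighbours enter only through the library in which they are high. With neighbours at 1 or more in both libraries, a choice also added afterwards, the shares over all sites were 5.22% (4.10 to 6.64) and 8.05% (6.99 to 9.24), a difference of -2.82 points (-4.46 to -1.06). Over the 388 and 1137 sites with such a neighbour they were 15.98% (12.7 to 19.96) and 16.01% (13.99 to 18.3), with an interval of the difference from -4.03 to 4.43. The 85 sites were near 69 different genes, of which 38 were higher in R5020 and 31 lower.

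By size of change the first 8 neighbours were mostly short RNAs or genes listed at 0 in 1 library. These were the small nucleolar RNAs SNORD36C (383 FPKM in EtOH, 0 in R5020), SNORD36B (0 and 265), SNORD119 (28.2 and 0) and SNORA9 (0 and 17.1), the keratin KRT18 with its failed estimate, LOC100507567 (6.71 and 0) and CNPY4 (3.68 and 0, beside the site in TAF6). GPSM2 was the 1 of the 8 above 0 with an estimate in both libraries. It encodes LGN, which orients the mitotic spindle, and was at 5.96 FPKM in EtOH and 37.1 in R5020. The member site nearest to it, 48.1 kb away in AKNAD1 at chr1:109371048-109371551, had a score of 109.59 and held a PRE core. AKNAD1 itself was at 0.0211 and 0.132.

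The next 4 were above 0 in both libraries and are named after their values were seen. SOX2, a transcription factor of stem cells, was at 3.41 FPKM in EtOH and 0.105 in R5020, with 2 member sites in SOX2-OT, the nearest 12.1 kb away, and SOX2-OT was at 0.038 and 0.016. TTLL12, a member of the tubulin tyrosine ligase-like family, was at 3.57 and 13.7, with 3 member sites in SCUBE1, which was listed at 0 in both. RIPK4, a kinase of keratinocyte differentiation, was at 1.96 and 8.32, with 1 member site 25.1 kb away in LINC00479, at 0.0494 and 0.0774. ADAMTS15 was at 1.76 and 7.23, with the member site of ADAMTS8 24.1 kb away. None of these 4 nearest sites held a PRE core. In these pairs the neighbour differed in RNA between the libraries. SOX2-OT, SCUBE1 and LINC00479 stayed under 0.1 FPKM in both, while ADAMTS8 passed that limit, at 0.0216 in EtOH and 0.258 in R5020. Nearness does not show which gene a site acts on.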

How the data were processed

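RNA of T47D cells was sequenced by the authors as 50-base read pairs, aligned to hg19 with TopHat and quantified with Cufflinks on RefSeq transcripts. The deposited FPKM values, with their listed limits, and the deposited coverage (mean read depth, a signal) come from 1 library per condition. PR ChIP reads were mapped by the authors with Bowtie 1.1.2, and the deposited peak score is that of MACS against input.

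Transcript FPKM was summed per gene identifier (41138 transcripts, 23287 genes). Coverage times length over 50 gave read equivalents. No test between conditions was possible with 1 library each. Shares have Wilson 95% intervals, differences of shares Newcombe 95% intervals, for counting error only. Changes use log2(FPKM + 1) and a fold of 1.5. Windows were read from GRCh37 with pysam 0.24.0, in Python 3.11.15, and functions were tested on simulated data. Members, gene lists and comparisons were chosen with earlier results of these data known. Named were host genes at 0.5 FPKM or more or 1.5-fold changed, the 10 highest, the 8 with most sites, up to 4 per list, sites of extreme score or with the stricter core, and the 8 neighbours changed most. Others are marked as chosen afterwards. Alternatives varied the limits, windows, pseudocount and gene summary. The mirror choice, the restrictions to sites with expressed neighbours or to neighbours expressed in both libraries, and the removal of doubtful zeros were added after seeing the data. The 2 sites on contigs without annotated starts were left out.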

Additional observations from a re-analysis of the deposited data

How the results depend on the processing

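The numbers of sites (830 to 1726) and host genes (525 to 1049) kept within 1.5 times of 1187 and 745 under every alternative run except an EtOH FPKM of exactly 0, which left 635 sites and 411 genes. The count of 54 host genes at 0.1 or more with R5020 became 25 with an EtOH limit of 0.05, 10 with exactly 0, 301 with 0.5, and 35 with sites more than 5 kb from a start. The limit of 0.5 lets in genes already above 0.1. The 5 genes at 1 or more became 15 with that limit and 3 without the zeros whose upper limit was above 0, an alternative added after seeing the data, and ranged from 4 to 5 otherwise. The 8 genes changed 1.5-fold became 59 (51 higher, 8 lower) with a pseudocount of 0.1, and 5 at 2-fold. Genes chosen under 0.1 in EtOH have little room to fall, so the 51 and 8 do not show a direction. The share of all silent genes at that pseudocount is not given here. The PRE core share of 6.99% became 10.5% over whole called sites, 4.47% in 200-base and 11.7% in 500-base windows, and 1.01% with the stricter core. The share of sites near a changed gene, 7.16%, became 3.12% within 20 kb, 13.0% within 100 kb, 3.20% at 2-fold, 8.93% with a pseudocount of 0.1, 5.22% for genes at 1 or more in both libraries, and 21.0% over sites with an expressed gene in reach, the last added after seeing the data. No paired analysis was possible because each condition has 1 library. A gene with a few reads cannot be told from one with none at this depth.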
